A study of Mus musculus with 9 samples.

Results

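The 9 genes examined here were the integrin subunits Itga5, Itgb1, Itgav, Itgb3, Itgb5, Itgb6, Itga4 and Itga8, which build the receptors that bind fibronectin, and Fn1, which encodes fibronectin itself. All probe sets that name 1 of these genes alone were taken, which gave 24 probe sets of 9 genes, out of 22626 probe sets and 12393 genes measured. RNA came from MLP29 cells, an established line of mouse hepatic progenitors, on 9 Affymetrix Mouse430A_2 arrays. In each of 3 experiments, starved cells (0.1% serum for at least 16 h) received for 24 h an antibody that blocks the function of α5β1 integrin (clone BMB5, 10 µg/ml), or received HGF/SF1 (hepatocyte growth factor, 20 ng/ml), or stayed untreated, with 3 arrays per condition. The study's methods mention control IgG in its experiments, but neither the labels nor the array methods name it for the untreated arrays, so that without it the addition of an antibody and the blockade of α5β1 cannot be told apart. All values are deposited log2 values, and fold changes are differences of their means. Of the markers of liver progenitor and epithelial cells, the keratins Krt8, Krt18 and Krt19 averaged 13.79, 14.01 and 13.23 over the 9 arrays, and Krt7 and Sox9 averaged 6.64 and 5.28. Cd24a, Cdh1 and Hnf4a, also of that list, averaged 12.62, 10.75 and 9.28, and Onecut1 averaged 4.05. Epcam and Prom1, progenitor markers, averaged 4.34 and 4.39, and Afp and Alb, products of fetal and adult hepatocytes, 4.14 and 4.01, near the lower quartile of an array (3.904 to 3.999).

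Integrins are heterodimers of an α and a β subunit that span the plasma membrane and tie the extracellular matrix to the actin cytoskeleton. α5β1, made by Itga5 and Itgb1, is the main fibronectin receptor and binds the RGD motif of fibronectin. The αv integrins, made by Itgav with Itgb1, Itgb3, Itgb5 or Itgb6, bind RGD in fibronectin and in other ligands such as vitronectin, and αvβ6, largely a receptor of epithelial cells, also activates latent TGF-β. α4β1 binds an alternatively spliced segment of fibronectin, and α8β1 binds fibronectin and nephronectin through RGD. In liver, fibronectin is made by hepatocytes as the plasma form and is deposited in the matrix during injury.

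Of the 9 genes, 7 have a sequence upstream of their start in the promoter table of RefSeq, build GRCm38.p6. The 250 bases before the start are shown for Itga5, whose product is part of the α5β1 integrin that the antibody blocks. They are also shown for Itgav and Itgb6, the genes with a probe set past the test below. Itgb6 has 2 starts, and the outermost is used. Capitals mark matches to the GC box on either strand.
Itga5 (chr15:103366792-103367041, minus strand): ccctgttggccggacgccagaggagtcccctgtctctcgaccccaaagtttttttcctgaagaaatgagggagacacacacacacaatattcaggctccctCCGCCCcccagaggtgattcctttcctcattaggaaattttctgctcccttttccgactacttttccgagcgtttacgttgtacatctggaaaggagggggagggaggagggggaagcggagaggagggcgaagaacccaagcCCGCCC
Itgav (chr2:83724147-83724396, plus strand): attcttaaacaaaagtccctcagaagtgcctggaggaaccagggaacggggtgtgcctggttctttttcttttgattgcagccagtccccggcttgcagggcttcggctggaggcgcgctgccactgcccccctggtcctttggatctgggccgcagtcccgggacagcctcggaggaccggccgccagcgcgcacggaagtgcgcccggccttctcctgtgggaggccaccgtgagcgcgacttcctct
Itgb6 (chr2:60722604-60722853, minus strand): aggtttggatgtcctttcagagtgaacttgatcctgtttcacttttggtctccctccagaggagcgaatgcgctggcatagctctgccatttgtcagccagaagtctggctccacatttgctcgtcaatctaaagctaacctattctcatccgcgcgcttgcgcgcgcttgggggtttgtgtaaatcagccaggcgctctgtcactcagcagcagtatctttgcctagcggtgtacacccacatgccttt
Searched on both strands were the GC box (GGGCGG), the AP-1 site (TGANTCA), an extended ETS string (CCGGAA), the cAMP response element (TGACGTCA) and the TATA box (TATAAA). These strings occur in 33%, 6.73%, 12.1%, 1.56% and 12.3% of 32536 windows of the same length. The shorter ETS core GGAA was not searched alone. The Itga5 window held 2 GC boxes, and the windows of Itgb1, Itgb5 and Itga4 held 1, 3 and 1. The windows of Itgav, Itga8 and both start sites of Itgb6 held none of these letter strings, nor did any member window hold an AP-1, ETS, cAMP response element or TATA string.

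After α5β1 blockade, Itgav and Itgb6, which together encode αvβ6, each had 1 probe set past the test and above its level in untreated cells. The brighter probe set of Itgb6 was not past it. With the probe sets of a gene averaged, neither Itgav (adjusted p = 0.448 from limma) nor Itgb6 (adjusted p = 0.543) was past the test. Itga5, Itgb1, Itgb3, Itgb5 and Fn1 had no probe set past it. Of the 24 probe sets, 2 (8.33%) were called higher and 0 lower at an unadjusted p under 0.05 in limma, against 11.8% of all probe sets. The share of members called was below that of all probe sets. Arrays of whole cultures cannot tell fewer cells of a kind from less RNA per cell. After adjustment over all probe sets (Benjamini-Hochberg), 0 of the 24 passed, with a lowest adjusted p of 0.307, against 5 probe sets of the whole array (0.0221%). The median log2 fold change was 0.07 over the members and 0.00 over all probe sets. After HGF/SF1, 0 of the 24 passed (adjusted p = 1 for each from limma), against 0.849% of all probe sets. In a fit with the experiment as a fixed block, 4 of the 24 (16.7%) passed after blockade, against 18.2% of all probe sets, and the 2 further probe sets belong to Itgb1 and Itgav. With a random block 2 (8.33%) passed, against 16.3% of all probe sets.

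**Figure D1:**
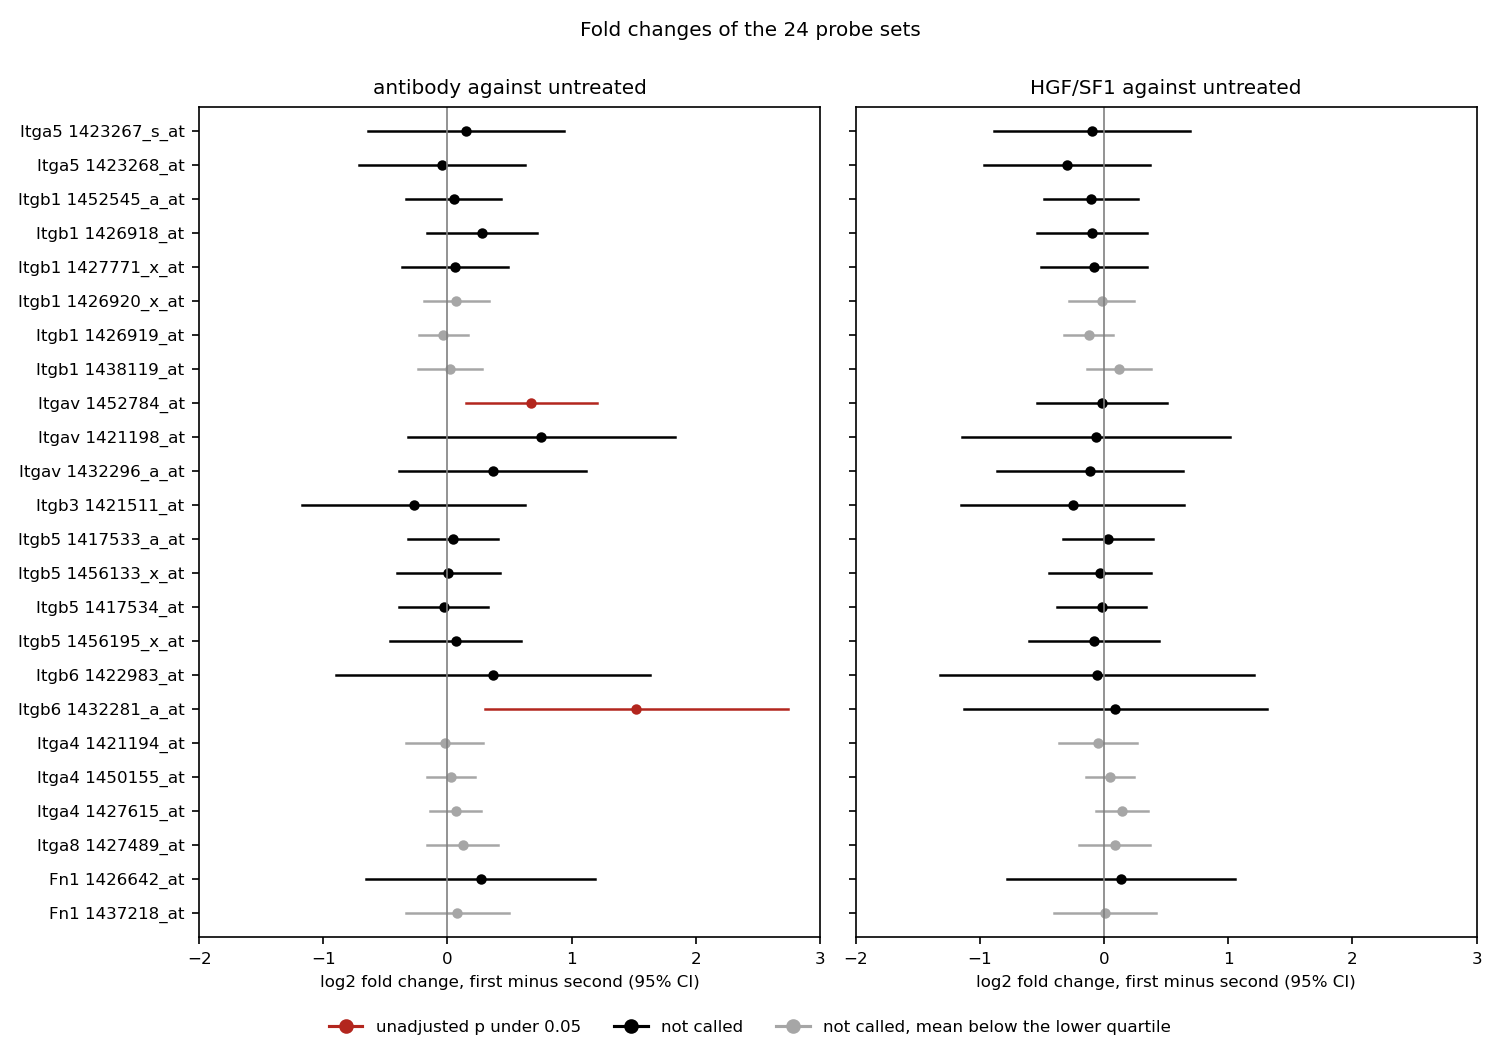
Log2 fold change with its 95% confidence interval for the 24 probe sets, antibody against untreated on the left and HGF/SF1 against untreated on the right. An Itgav and an Itgb6 probe set, at 0.68 and 1.52, have intervals above 0 on the left, and all intervals on the right include 0.

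Itga5 encodes the α5 subunit, the partner of β1 in the receptor that the antibody blocks. Its brighter probe set, 1423267_s_at, read 7.20, 7.00 and 7.99 in antibody-treated cells of experiments 1, 2 and 3, 7.12, 6.73 and 7.60 in HGF/SF1-treated cells, and 6.86, 7.07 and 7.81 in untreated cells. The 3 conditions overlapped, and in each of them experiment 3 was highest. The fold change was 0.15 (SE 0.34, 95% CI -0.64 to 0.94) for antibody and -0.10 (SE 0.34, 95% CI -0.88 to 0.69) for HGF/SF1 against untreated cells. With the experiment as a block, these intervals narrowed to -0.16 to 0.46 for antibody and -0.41 to 0.22 for HGF/SF1, and both still included 0. The dimmer probe set, 1423268_at, read 5.27, 4.90 and 5.64 with antibody, 5.33, 4.54 and 5.18 with HGF/SF1, and 5.73, 4.88 and 5.33 in untreated cells, and its highest value was the untreated one of experiment 1. It was below the untreated level in 3 of 3 experiments after HGF/SF1, by -0.30 (SE 0.29, adjusted p = 1 from limma), which did not pass. Over the 9 arrays the probe sets of Itga5 correlated with r = 0.49.

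Itgb1 encodes the β1 subunit, shared by α5β1, αvβ1, α4β1 and α8β1. Of its 6 probe sets, 3 had means below the lower quartile, from 3.24 to 3.52, and the other 3 carried the signal. The brightest, 1452545_a_at, read 9.84, 9.82 and 10.03 with antibody, 9.70, 9.58 and 9.95 with HGF/SF1, and 9.70, 9.66 and 10.19 in untreated cells. Its conditions overlapped, and the antibody fold change of 0.05 (SE 0.17, 95% CI -0.33 to 0.43) was smaller than the spread between arrays. Probe set 1426918_at read 9.62, 9.92 and 10.16 with antibody, 9.27, 9.56 and 9.73 with HGF/SF1, and 9.35, 9.62 and 9.88 in untreated cells. Here the antibody array was highest within each experiment, by 0.26, 0.30 and 0.28 over the untreated array, although the groups overlapped across experiments. The fold change of 0.28 (SE 0.19) did not pass in the fit on group means (adjusted p = 0.656 from limma), and passed the unadjusted threshold with the experiment as a fixed block (SE 0.08, adjusted p = 0.149 from limma) but not as a random block (adjusted p = 0.381). Against HGF/SF1, the difference was 0.38, which missed the threshold without the block (adjusted p = 0.472 from limma) and passed it with the fixed block (adjusted p = 0.0726) and the random block (adjusted p = 0.213). The third, 1427771_x_at, had a fold change of 0.06 (SE 0.19) after antibody. Differences between the Itgb1 probe sets were not tested. Against HGF/SF1, each of the 3 brighter probe sets was above in 3 of 3 experiments, by 0.16, 0.38 and 0.14 on average, and over the 9 arrays they correlated with r from 0.70 to 0.91.

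Itgav encodes the αv subunit. Its brightest probe set, 1452784_at, read 10.59, 11.51 and 11.005 in antibody-treated cells, 10.41, 10.43 and 10.18 in HGF/SF1-treated cells, and 10.08, 10.44 and 10.55 in untreated cells. The antibody values lay above all values of both other conditions, and the closest pair was the antibody array of experiment 1 and the untreated array of experiment 3. Such a gap between antibody and untreated cells was found in 14.2% of all probe sets. Itgav was higher by 0.68 (SE 0.23, 95% CI 0.15 to 1.202, adjusted p = 0.307 from limma), a 1.6-fold difference, with 0.51, 1.07 and 0.45 within the 3 experiments. After HGF/SF1 it differed from untreated cells by -0.02 (SE 0.23, 95% CI -0.54 to 0.51), with 0.33, -0.01 and -0.37 within the experiments. The call was lost without the antibody array of experiment 2 (0.44, adjusted p = 0.714 from limma) and without the untreated array of experiment 1 (0.54, adjusted p = 0.586).

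The other probe sets of Itgav pointed the same way with more spread. Probe set 1421198_at read 7.31, 7.89 and 8.66 with antibody, 7.22, 6.70 and 7.47 with HGF/SF1, and 6.76, 6.64 and 8.19 in untreated cells. The untreated array of experiment 3 stood well above the untreated arrays of experiments 1 and 2, and the groups overlapped. The antibody fold change was 0.76 (SE 0.47, adjusted p = 0.61 from limma), and it passed with the experiment as a fixed block (SE 0.26, adjusted p = 0.198) but not as a random block (adjusted p = 0.36). Probe set 1432296_a_at read 4.89, 4.92 and 5.402 with antibody, 4.66, 4.49 and 4.62 with HGF/SF1, and 4.66, 3.99 and 5.47 in untreated cells, where experiment 3 gave the highest value of all 9 arrays. Its fold change of 0.36 (SE 0.33) did not pass, with 0.23, 0.93 and -0.07 within the experiments. With the 3 probe sets averaged, Itgav had a fold change of 0.60 and missed the threshold (adjusted p = 0.448 from limma).

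**Figure D2:**
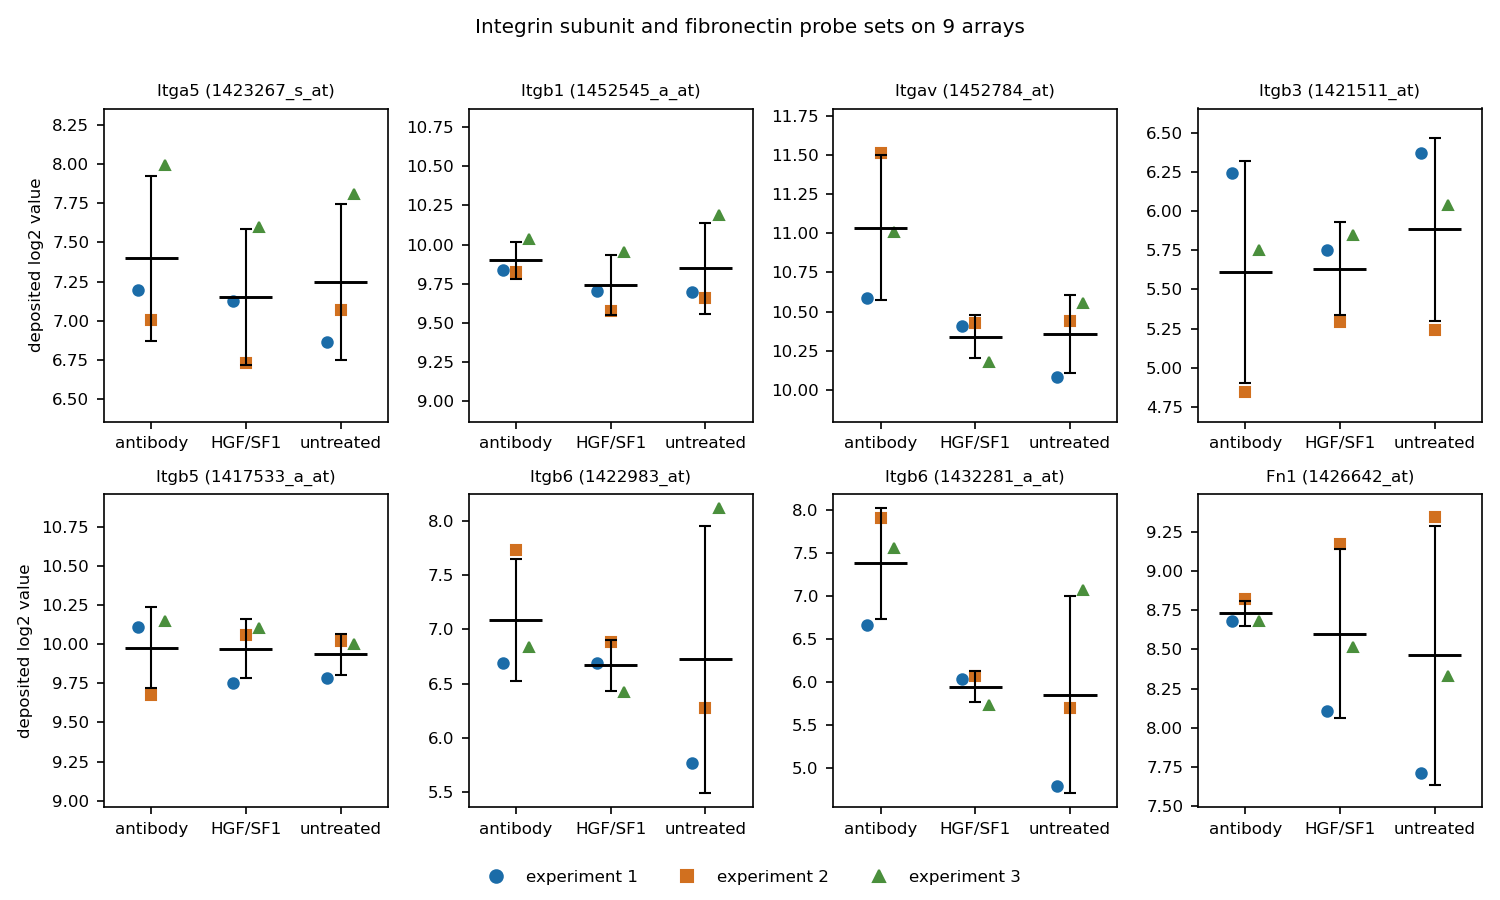
Deposited log2 values of 8 probe sets on 9 arrays (points, shaped by experiment), with the mean and SD of 3 arrays per condition. The antibody values of Itgav 1452784_at lie above all others, and the untreated array of experiment 3 is the highest of all in Itgb6 1422983_at, at 8.11.

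Among the β partners of αv, Itgb6 encodes the β6 subunit of epithelia. Probe set 1432281_a_at read 6.66, 7.91 and 7.56 in antibody-treated cells, 6.03, 6.07 and 5.74 in HGF/SF1-treated cells, and 4.79, 5.70 and 7.07 in untreated cells. All antibody values lay above all HGF/SF1 values, but the untreated value of experiment 3 lay above the antibody value of experiment 1. Itgb6 was higher with antibody than in untreated cells by 1.52 on this probe set (SE 0.53, 95% CI 0.30 to 2.74, adjusted p = 0.32 from limma), a 2.87-fold difference, with 1.87, 2.21 and 0.49 within the experiments. Without the untreated array of experiment 3 the difference was 2.13. The call was lost without the antibody array of experiment 2 (1.26, adjusted p = 0.746) or 3 (1.43, adjusted p = 0.596) and without the untreated array of experiment 1 (0.99, adjusted p = 0.589) or 2 (1.45, adjusted p = 0.574 from limma).

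The brighter probe set of Itgb6, 1422983_at, did not pass. It read 6.69, 7.73 and 6.84 with antibody, 6.69, 6.89 and 6.43 with HGF/SF1, and 5.78, 6.28 and 8.11 in untreated cells, so that antibody was above untreated in experiments 1 and 2 and below it in experiment 3. The fold change was 0.36 (SE 0.55, 95% CI -0.90 to 1.63). With both probe sets averaged, Itgb6 had a fold change of 0.94 and missed the threshold (adjusted p = 0.543 from limma). The probe sets of Itgb6 correlated over the 9 arrays with r = 0.81 and both had their highest untreated value in experiment 3. After HGF/SF1, they differed from untreated cells by 0.09 and -0.06 (SE 0.53 and 0.55), with positive differences in experiments 1 and 2 and negative ones, of -1.33 and -1.69, in experiment 3.

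**Figure D3:**
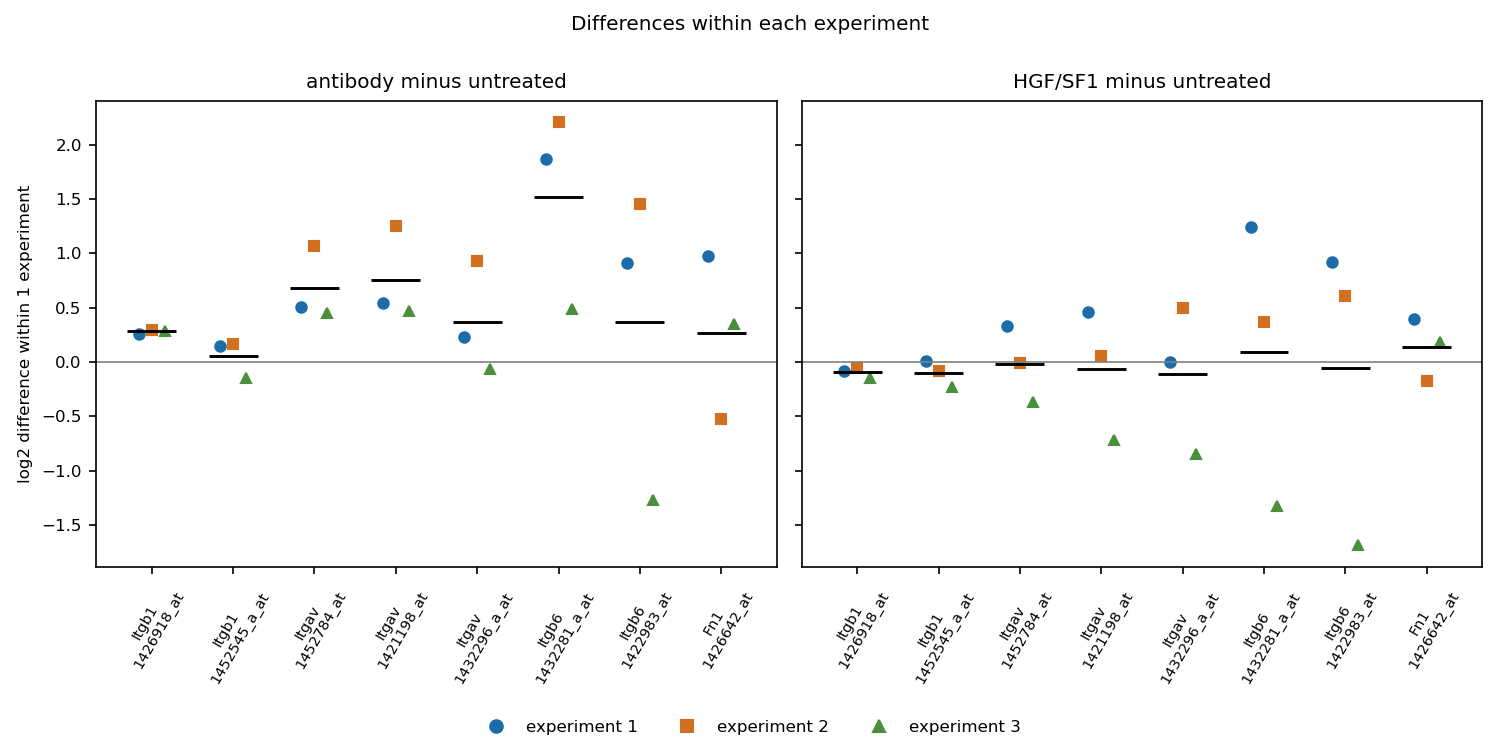
Log2 difference from the untreated array of the same experiment (points), with the mean over the 3 experiments (bars), for antibody on the left and HGF/SF1 on the right. Itgb1 1426918_at differs by 0.26, 0.30 and 0.28 with antibody, and Itgb6 1422983_at ranges from -1.27 to 1.45.

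Itgb3 encodes the β3 subunit, which forms the vitronectin receptor αvβ3. Its probe set read 6.24, 4.84 and 5.75 with antibody, 5.75, 5.30 and 5.85 with HGF/SF1, and 6.37, 5.24 and 6.04 in untreated cells. Antibody was below untreated in 3 of 3 experiments, but the groups overlapped and the fold change of -0.27 (SE 0.39, 95% CI -1.17 to 0.63, adjusted p = 0.869 from limma) did not pass. In HGF/SF1-treated cells, Itgb3 differed by -0.25 (SE 0.39).

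Itgb5 encodes the β5 subunit of αvβ5, and was measured by 4 probe sets. The brightest read 10.11, 9.68 and 10.15 with antibody, 9.75, 10.06 and 10.10 with HGF/SF1, and 9.79, 10.02 and 10.00 in untreated cells. Antibody was above untreated in experiments 1 and 3 and below it in experiment 2, a pattern seen in all 4 probe sets. Over the 9 arrays, however, 1456133_x_at correlated with the other Itgb5 probe sets at only r = 0.355, 0.249 and 0.11. Those others correlated with each other at r from 0.831 to 0.955. The fold changes were between -0.03 and 0.07 after antibody and between -0.08 and 0.03 after HGF/SF1. For the brightest probe set, the 95% CI of the antibody difference was -0.32 to 0.40.

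Itga4, the α subunit of α4β1, and Itga8, the α subunit of α8β1, were not measured above the lower quartile by any probe set. The 3 Itga4 probe sets averaged 3.54, 3.49 and 3.25 and the Itga8 probe set 3.26, so that a change in these genes was not detectable here. Together with 3 probe sets of Itgb1 and 1 of Fn1, 8 of the 24 probe sets were this dim. Their antibody fold changes ran from -0.03 to 0.12, and none passed (lowest adjusted p = 0.79 from limma).

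Fn1, the ligand, was read by 1426642_at at 8.68, 8.82 and 8.68 in antibody-treated cells, at 8.11, 9.18 and 8.52 in HGF/SF1-treated cells, and at 7.71, 9.35 and 8.33 in untreated cells. The 3 antibody values lay close together, inside the range of the untreated ones. Antibody was above untreated by 0.97 and 0.35 in experiments 1 and 3 and below it in experiment 2, by -0.53. The fold change was 0.27 (SE 0.40, 95% CI -0.65 to 1.19, adjusted p = 0.876 from limma) after antibody and 0.14 (SE 0.40) after HGF/SF1. The SD of 3 arrays was 0.08 with antibody, 0.54 with HGF/SF1 and 0.83 in untreated cells, and whether these spreads differ was not tested. The second probe set of Fn1 averaged 3.53. Which spliced forms of Fn1 these probe sets read was not tested.

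Antibody-treated and HGF/SF1-treated cells were also compared directly, a comparison that shares its antibody arrays with the one against untreated cells. The same 2 probe sets were called among the 24 (8.33%), against 13.2% of all probe sets, and 5 probe sets of the array passed after adjustment (0.0221%), none of them a member. Itgav 1452784_at was higher with antibody by 0.69 (SE 0.23, adjusted p = 0.261 from limma) and Itgb6 1432281_a_at by 1.43 (SE 0.53, adjusted p = 0.303). In 3 of the 24 probe sets antibody and HGF/SF1 did not overlap. These were the 2 called and Itgav 1432296_a_at, which was not called (0.48, adjusted p = 0.621 from limma). The share of all probe sets with such a gap was not counted for this comparison, and was 14.2% for antibody against untreated cells. The count is therefore not read as a result about the members. With the experiment as a fixed block, 4 of the 24 (16.7%) passed, against 19.8% of all probe sets. A random block gave 3 (12.5%), against 17.9%. Itgav lost its call here without the HGF/SF1 array of experiment 3 (0.61, adjusted p = 0.47 from limma), and Itgb6 lost its own without that array, the HGF/SF1 array of experiment 1 or the antibody array of experiment 2 or 3 (1.16 to 1.47).

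The spread of the α5β1 subunits followed the experiment more than the condition. Of the sum of squares of Itga5 1423267_s_at over the 9 arrays, condition took 6.14% and experiment 86.4%. For the 3 brighter Itgb1 probe sets the experiment took 76.6%, 62.6% and 86.4%, and condition 12.1%, 36.9% and 7.07%. The experiment also took 81.1% for Itgb3 and 66.9% for Fn1. For Itgav 1452784_at and Itgb6 1432281_a_at, the probe sets already called by condition, condition took 61.4% and 55.5%, and experiment 18.6% and 19.1%. Condition took less in the other probe sets of these genes. It took 31.6% in Itgav 1421198_at, 22.6% in Itgav 1432296_a_at and 7.6% in Itgb6 1422983_at, where experiment took 52.4%, 45% and 22.3%. Over all probe sets the medians were 23.4% for condition and 32.8% for experiment. Itga5 1423267_s_at averaged 7.06, 6.93 and 7.80 in experiments 1, 2 and 3, highest in experiment 3, and the dimmer 1423268_at averaged 5.44, 4.77 and 5.38, highest in experiment 1. Fn1 1426642_at averaged 8.17, 9.12 and 8.51, highest in experiment 2.

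**Figure D4:**
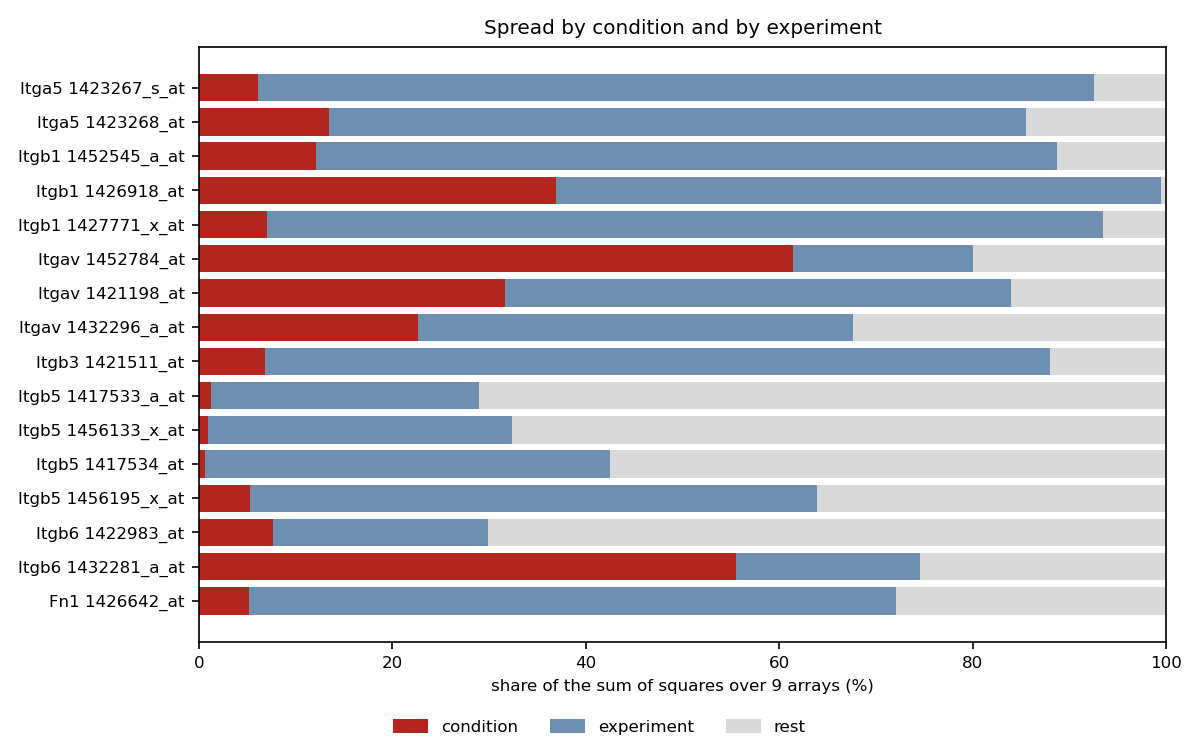
Share of the sum of squares over 9 arrays taken by condition, by experiment and by the rest, in percent, for the 16 probe sets with means above the lower quartile. Condition takes the widest share in Itgav 1452784_at and Itgb6 1432281_a_at, at 61.4% and 55.5%, and experiment takes 86.4% in Itga5 1423267_s_at.

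Subunits that pair in a receptor did not all vary together over the 9 arrays, which share 3 experiments. Taking each gene at its brightest probe set, Itga5 and Itgb1 correlated with r = 0.91 (rho = 0.90), both being highest in experiment 3. Itgav correlated with Itgb6 at 0.64, with Itgb1 at 0.25, with Itgb5 at -0.23 and with Itgb3 at -0.61, and Itga5 with Fn1 at -0.11. Among 6722 genes above the median level, the patterns most like Itga5 were those of Cd9, a tetraspanin (r = 0.99), Dtx3 (0.96) and Lsm12 (0.95), and those most like Itgb1 were Creb1, a transcription factor (0.94), Ppp4c (0.93) and Paip2 (0.93). Most like Itgav were Ifnar1, a subunit of the type I interferon receptor (0.99), Sun2, a protein of the inner nuclear membrane (0.98), and Nfatc1, a transcription factor (0.98). Most like Fn1 were Mfn1, a mitochondrial fusion protein, Tmem230 and Smarca2, an ATPase of chromatin remodeling, each at 0.91.

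Other genes of integrin and fibronectin biology were each counted by the brightest probe set. Counted this way, 4.68% of all genes were higher and 7.92% lower after antibody, and 0.533% higher and 0.307% lower after HGF/SF1. These shares come from the fit on group means, and none was counted over genes for the fixed block. Over all probe sets, the fixed block raised the share called from 11.8% to 18.2% after antibody and from 0.849% to 1.82% after HGF/SF1. In the antibody comparison, 2 of 13 other integrin subunits were higher, Itga2, a collagen receptor subunit, at 0.88 (SE 0.33), and Itgb2, the β subunit of leukocyte integrins, at 1.44 (SE 0.56). Itgb4, which anchors hemidesmosomes to laminin, was lower at -0.91 (SE 0.26), although it was lower in 2 of 3 experiments only. Of 22 other RGD and matrix ligands, Ccn1, a matricellular ligand of αv integrins, was higher at 1.61 (SE 0.43), and with the block 2 were called. Of 23 fibronectin co-receptors and binding partners, Tnxb, a tenascin, was lower at -0.91 (SE 0.27), and with the block 2 were higher and 1 lower. Of 32 genes of integrin activation and recycling, 2 were higher and 3 lower, among them Sharpin, an inhibitor of integrin activation, at -0.52 (SE 0.14), Rab4a, a GTPase of rapid recycling, at -0.56 (SE 0.17), and Cib1, a calcium- and integrin-binding protein, at -0.42 (SE 0.15). The higher ones were Clic3, a chloride intracellular channel protein, at 0.56 (SE 0.24), and Vps35, a retromer subunit, at 0.32 (SE 0.12), and with the block 4 were called each way. None of these genes passed after HGF/SF1 in the fit on group means, where 1 of the 23 fibronectin partners passed with the block, and none passed after adjustment in either comparison.

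Of 9 genes that regulate splicing and have been tied to the choice of fibronectin exons or to epithelial splicing, 4 were lower after antibody and 1 higher. Over all genes, 7.92% were lower and 4.68% higher. The list median was -0.15 against 0.00 over all genes. Esrp2, a splicing factor of epithelial cells, was at 7.58, 6.48 and 6.85 in antibody-treated and 8.43, 8.36 and 8.17 in untreated cells, a difference of -1.35 (SE 0.29, adjusted p = 0.175 from limma). The groups did not overlap, a gap found in 14.2% of all probe sets. Srsf3, an SR protein, was lower at -0.77 (SE 0.23), and Hnrnpa1, an RNA-binding protein that often opposes SR proteins, was higher at 0.75 (SE 0.21). Srsf1 and Srsf5 were lower at -0.65 and -0.51. Antibody and untreated values did not overlap in Srsf1, Srsf3, Srsf5 and Hnrnpa1 either. Whichever of the 9 arrays was left out, Esrp2, Srsf3, Hnrnpa1, Itgb4, Ccn1, Tnxb, Sharpin and Rab4a stayed past the unadjusted threshold. Without the antibody array of experiment 2, however, Tnxb was at -0.57 and Rab4a at -0.35. Itga2 lost its call without the antibody array of experiment 2 or 3 or the untreated array of experiment 1 or 2, Itgb2 and Srsf1 without the antibody array of experiment 1 or 2 or the untreated array of experiment 2 or 3, and Cib1 without the antibody or untreated array of experiment 1 or 2. With each array left out in turn, fold changes ran from 0.57 to 1.22 for Itga2, from 1.15 to 1.69 for Itgb2, from -0.80 to -0.46 for Srsf1 and from -0.52 to -0.34 for Cib1. Srsf5 (-0.63 to -0.28), Clic3 (0.34 to 0.73) and Vps35 (0.25 to 0.39) kept the call without 3, 3 and 4 of the 9 arrays. The values closest to 0 came without the antibody array of experiment 2 for Srsf5, the untreated array of experiment 3 for Clic3 and the untreated array of experiment 2 for Itga2.

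Markers of other cell types were set beside these values. Of 10 leukocyte and Kupffer cell markers, Cd68, a lysosomal glycoprotein of macrophages, was called higher after antibody, at 2.595 (SE 0.65), while the pan-leukocyte marker Ptprc averaged 3.25, below the lower quartile. The summed level of that list on the linear scale, led by Cd14 with a mean log2 value of 11.73, was 2368 to 5478 with antibody, 3540 to 4594 with HGF/SF1 and 3534 to 4850 in untreated cells. Of 5 platelet markers, Ppbp was higher at 1.51 (SE 0.51), and at 0.79 without the antibody array of experiment 1, where it read 8.15, with list sums of 282.9 to 505.1 with antibody, 229 to 272.6 with HGF/SF1 and 215 to 296.9 in untreated cells, and Itga2b, the platelet partner of β3, was at 0.08 (SE 0.10). Of 12 fibroblast and stellate cell markers and 10 endothelial markers 0 passed, as did 0 of 13 liver progenitor and epithelial markers, and with the block 1 of the 13 was higher and 1 lower and a second platelet marker was higher. The part of Cd68 and Ppbp in the member values was not tested.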

How the data were processed

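The authors used affylmGUI, with background correction by rma, on the 9 arrays as a set, and deposited 1 log2 value per probe set and array. The normalization between arrays is not given in the sources used here, and array medians ran from 5.92 to 6.09. Of 22690 probe sets, 64 control probe sets were left out. Of the other 22626, 20380 name 1 gene. A mean per condition was fitted to all probe sets with limma 3.58.1 in R 4.3.3 (eBayes, two-sided, 6 residual and 2.39 prior degrees of freedom). The fit was tried first on simulated data with independent arrays and no difference between experiments. That trial does not check the fit for arrays that vary together within an experiment. A probe set was called at an unadjusted p under 0.05, the study's p-value threshold read as unadjusted because no adjustment is named for gene-level p-values, and adjusted values are Benjamini-Hochberg over 22626 probe sets. The precision is limited by 3 arrays per condition, and what separates the experiments beyond the number in their titles is not given. The p-values therefore measure the spread between these arrays.

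Arrays were grouped into experiments by the number shared in the sample titles, with each condition once. Experiments were numbered in the order in which the samples are listed. After subtraction of condition means, r was 0.0958 to 0.591 between arrays of the same experiment and -0.484 to 0.0308 between those of different experiments and conditions. The experiment as a fixed or random block, other scalings, filters, moderation and left-out arrays were alternatives.

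All member probe sets are reported. A gene took its brightest probe set where 1 value was needed. From each list, the 3 genes with the smallest p after antibody and the gene with the smallest after HGF/SF1, if past the threshold, were named, except that Srsf1, Srsf5, Clic3 and Vps35 were named after their values were seen. Like patterns are the 3 highest Pearson correlations. The members and lists were chosen with earlier results of these data known. Intensity files were not used here.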

Additional observations from a re-analysis of the deposited data

How the results depend on the processing

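With the experiment as a fixed block, 4 of the 24 probe sets were called for antibody against untreated cells and 4 for antibody against HGF/SF1, where the fit on group means called 2 in each. The other scalings, the filter, the intensity trend, the random block and the fit on only the groups compared gave 2 or 3. Without 1 array or 1 experiment, the count ran from 0 to 5 against untreated cells and from 0 to 3 against HGF/SF1. Against untreated cells it was 0 without the antibody array of experiment 2 or the untreated array of experiment 1. All probe sets then had 7.1% and 9.16% called. It was 5 (20.8%) without the untreated array of experiment 3, against 10.5%, and Itgav and Itgb6 then had all their probe sets called. Against HGF/SF1 it was 3 (12.5%) without the antibody array of experiment 1 or the untreated array of experiment 3, against 18.2% and 12.6%. Without experiment 2 the only call against untreated cells was Fn1 1426642_at (0.66, unadjusted p = 0.0495 from limma). That was 4.17% of the members, against 4.03% of all probe sets. For HGF/SF1 against untreated cells, 0 were called under all 19 alternatives. Over all probe sets, the counts of 2674, 192 and 2978 became 4114, 411 and 4490 with the fixed block, 374 for HGF/SF1 with the random block and 14 for HGF/SF1 after the filter, and ranged without 1 array or 1 experiment from 912 to 4014, 123 to 366 and 1257 to 4114. Of 900 values of the 16 brighter probe sets under an alternative, 18 lost a call, 14 gained a call and 0 called values changed sign. Among uncalled members, up to 4 of 24 changed sign under another scaling and up to 9 without an array or experiment. Without the antibody array of experiment 1, Itgav 1452784_at passed the adjusted threshold against HGF/SF1 (0.92, adjusted p = 0.0476 from limma). The fixed and random blocks changed no call of a member other than those of Itgb1 1426918_at and Itgav 1421198_at. Leaving out each array for the called genes of the other lists was chosen after seeing the data.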
